A study of Mus musculus with 18 samples.

Results

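Of the 16614 genes in the deposited expression table, 8 belong to the prostaglandin and leukotriene pathway as described here: Ptger2, Ptger3, Ptger4, Ptgs1, Ptgs2, Ptges, Alox5 and Alox5ap. They were taken by gene symbol, and the list was chosen by someone who had seen levels measured in these same libraries, among them the fall of Ptger3 with lipopolysaccharide (LPS). Their fold changes and adjusted p-values, all from a fit over the whole table, are therefore given as a description, and nothing is supported with them. The cells were mouse bone marrow-derived dendritic cells (BMDC), grown for 7 to 10 days with the cytokines Flt3L (100 ng/ml) and GM-CSF (20 ng/ml) and then purified for XCR1, a surface receptor of type 1 conventional dendritic cells (cDC1). Purification was either a sort for CD11c+ Xcr1+ cells or XCR1 antibody with magnetic beads, and the labels do not say which was used for a given sample. The 4 groups were WT control (n = 4), KO control (n = 4), WT LPS (n = 5) and KO LPS (n = 5). LPS is a bacterial ligand of Toll-like receptor 4, and its dose and time are not in the labels. The labels do not name the gene deleted in KO, so the deletion could not be checked by its transcript. By its title the series concerns how STAT5 and STAT3, cytokine-activated transcription factors, are balanced.

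Prostaglandins and leukotrienes are lipid mediators made from arachidonate, a fatty acid that phospholipases release from membranes. The cyclooxygenases PTGS1 and PTGS2 turn it into prostaglandin H2, from which the synthase PTGES makes prostaglandin E2, and the enzyme ALOX5 with its partner ALOX5AP turns it into leukotriene A4. Prostaglandin E2 acts on dendritic cells through receptors of the PTGER family, of which PTGER2 and PTGER4 raise cyclic AMP (cAMP) and PTGER3 mainly lowers it.

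Library totals lay between 25590104 and 27375189 estimated counts. All 14 cDC1 markers of a list were detected. Their summed levels are given in CPM (counts relative to library size, scaled with TMM factors). Without LPS the sums were 9070 to 9382 for WT and 8549.5 to 9642 for KO. With LPS they were 8006 to 9393 for WT and 7563 to 8433 for KO. Wdfy4 and Irf8 were the largest parts in WT control (3506 and 1851 CPM). Single markers moved both ways with LPS, with 5 called higher and 7 lower in WT, and 6 and 6 in KO. Over all tested genes 40.7% were called higher and 44.7% lower in WT, and 40.0% and 46.2% in KO. Neutrophil markers stood out in WT control replicate 4 (28.7 CPM summed over 10 genes) and WT LPS replicate 5 (87.1 CPM), against at most 2.10 CPM in the other libraries. WT LPS replicate 2 also stood apart: 1294 genes were called between genotypes with LPS in all libraries, and 3344 without it. These are bulk samples, so fewer cells of a type and less RNA per cell cannot be told apart. The labels do not say that replicates are separate cultures or animals, and p-values measure the spread between these samples only.

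The LPS comparisons covered nearly the whole transcriptome. In WT, 40.7% of 11989 tested genes were called higher and 44.7% lower (edgeR, adjusted p under 0.05), and in KO 40.0% were called higher and 46.2% lower. Of the 8 genes, 7 passed the filter on low counts. In both genotypes Ptger4, Ptgs2 and Ptges were called higher and Ptger2, Ptger3, Ptgs1 and Alox5ap lower. Alox5 did not pass the filter. A call with LPS is thus common to most genes. Scaled by total count in place of TMM, 2379 genes were called higher and 8375 lower in WT, and 2416 and 8437 in KO, against 4884 and 5362 in WT and 4794 and 5544 in KO with TMM. The 7 genes kept their directions under both scalings.

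**Figure D1:**
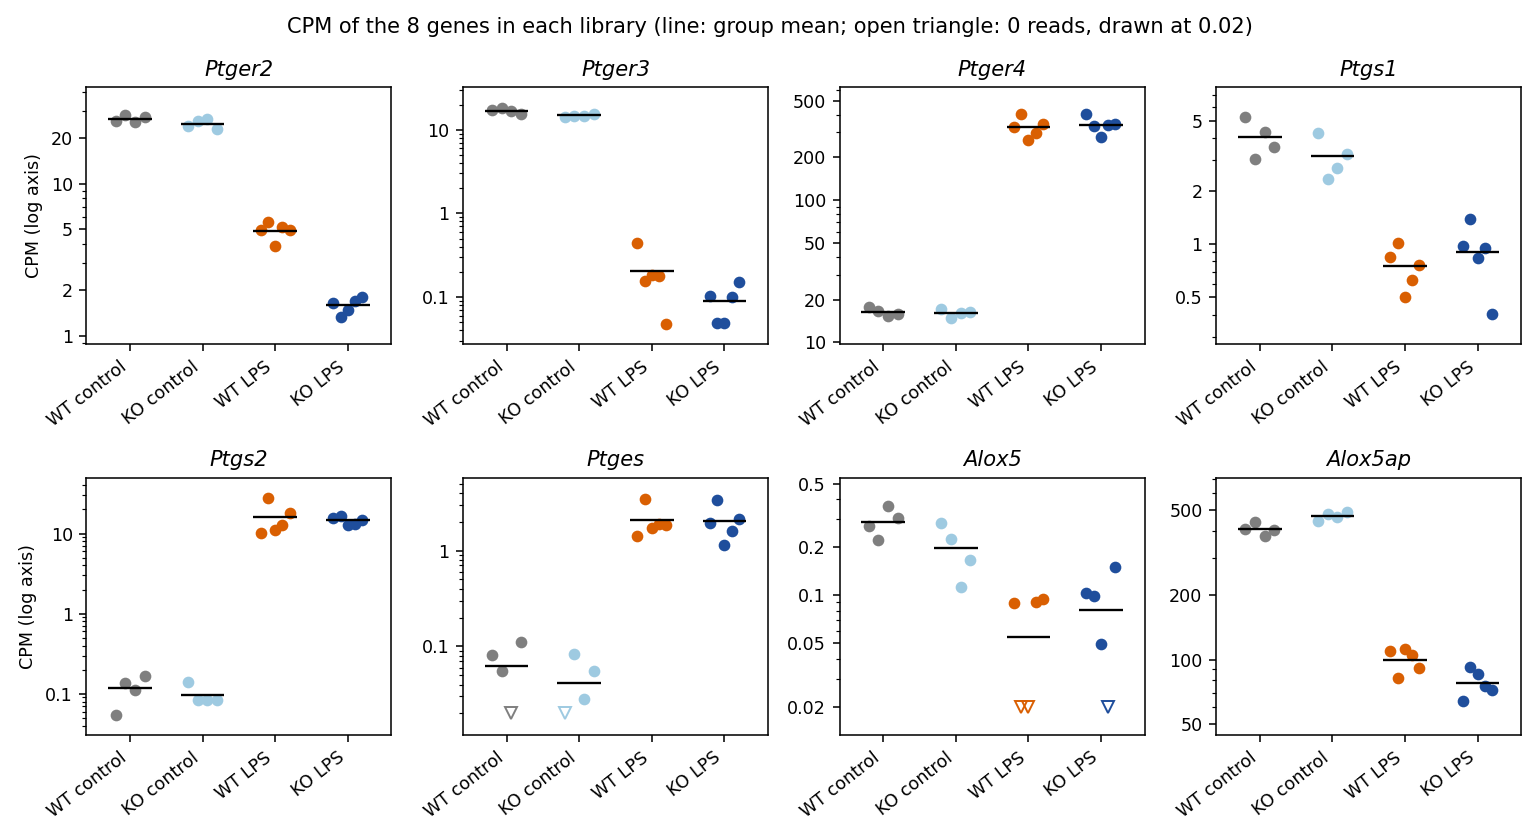
CPM of the 8 genes in each library on log axes that differ between panels (points: libraries; lines: group means; open triangles: libraries with 0 counts, drawn at 0.02). Ptger4, Ptgs2 and Ptges lie higher with LPS in every library. Of the 8 genes, Ptger2 alone has WT LPS and KO LPS points that do not overlap. How common this is over all tested genes was not counted.

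Among the receptors, a mixture in the controls gave way to a single dominant transcript with LPS. Per length (TPM), Ptger3 and Ptger2 made up 39.1% ± 1.42 and 37.9% ± 1.60 of the summed Ptger1 to Ptger4 transcripts in WT control, and Ptger4 21.8% ± 1.53 (SD, n = 4). In WT LPS, Ptger4 made up 98.1% ± 0.224, Ptger2 1.58% ± 0.159 and Ptger3 0.108% ± 0.0826 (SD, n = 5). Ptger1, a calcium-mobilising receptor that is not among the 8 genes, lay at 1.18% in WT control and 0.217% in WT LPS. KO samples showed the same order with LPS, at 99.2% ± 0.0704 for Ptger4 and 0.506% ± 0.0502 for Ptger2. The ratio of Ptger4 to Ptger2 in TPM averaged 0.577 ± 0.0582 for WT and 0.628 ± 0.0808 for KO without LPS, and 62.6 ± 6.71 for WT and 198 ± 19.0 for KO with LPS. The genotypes overlapped in this ratio without LPS, and with LPS the lowest KO library (170.3) lay above the highest WT library (72.9).

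**Figure D2:**
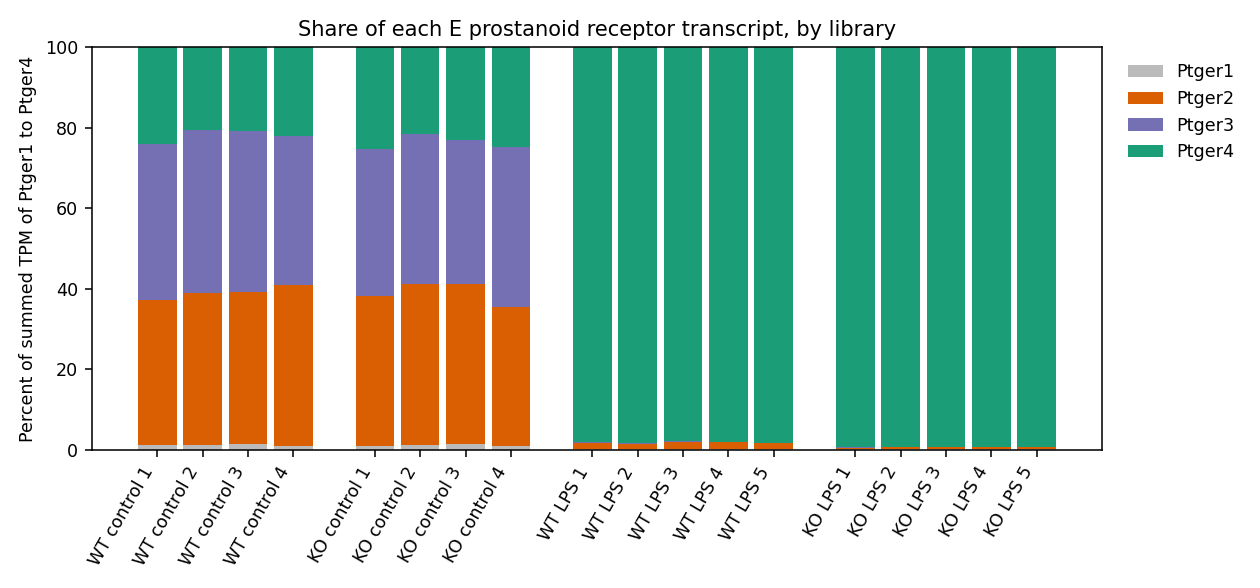
Share of Ptger1, Ptger2, Ptger3 and Ptger4 in their summed TPM, in percent, by library and group. Ptger4 holds 20.6% to 25.1% in the control libraries and 97.9% to 99.3% in the LPS libraries.

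Ptger2 (gene ID 19217), the receptor that raises cAMP, was present in all controls and fell with LPS, further in KO than in WT. Its level was 25.9, 28.3, 25.5 and 27.2 CPM in WT control and 23.9, 25.7, 26.6 and 22.7 CPM in KO control. With LPS it was 4.97, 5.57, 3.91, 5.18 and 4.99 CPM in WT and 1.64, 1.34, 1.48, 1.70 and 1.80 CPM in KO. All 5 KO LPS libraries lay below all 5 WT LPS libraries, while the control groups overlapped. How many of all tested genes separate in this way was not counted, here or for the genes below. The log2 fold change with LPS was -2.44 ± 0.08 (SE) in WT and -3.95 ± 0.10 in KO, or 5.43-fold and 15.5-fold lower.

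Between genotypes with LPS, Ptger2 was 3.08-fold lower in KO (log2 -1.62 ± 0.11 SE, edgeR adjusted p = 8.5e-09). The background of this comparison was 5.30% of tested genes called higher and 5.50% lower (635 and 659 genes, or 356 and 1192 with total-count scaling). Of the 659 genes called lower, Ptger2 ranked 13 by the size of its fall, and 45 were lower by a factor of 2 or more. Over 27 alternatives, which include leaving out each of the 18 libraries, the log2 value stayed between -1.70 and -1.51 with adjusted p at most 2.8e-05. Within each of the 5 sets of library numbers KO lay below WT, with log2 differences of -2.00 to -1.36. Markers of cDC1 moved in the same comparison, with 5 of 14 called lower (Xcr1, Naaa, Itgae, Batf3 and Flt3) and 2 higher (Cadm1 and Cd8a). Xcr1, on which the cells were purified, lay at 428 CPM in WT LPS and 281 CPM in KO LPS (log2 -0.61 ± 0.06), and Naaa, an amide hydrolase, at 986 and 514 CPM (-0.94 ± 0.08). In the controls Xcr1 lay at 175 CPM in WT and 109 CPM in KO, and Naaa at 1119 and 1244 CPM. There 1 of the 14 markers was called lower in KO and 0 higher. The part of these markers in the difference of Ptger2 was not tested. Without LPS the difference of Ptger2 was -0.11 ± 0.08 (adjusted p = 0.59), with an interval of -0.27 to 0.05. The difference between the LPS responses was -1.51 ± 0.14 (adjusted p = 1.1e-06), in a test that called 1.03% of genes higher and 2.79% lower (124 and 334 genes, or 174 and 232 with RLE scaling).

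Ptger3 (gene ID 19218), the receptor that mainly lowers cAMP, was lost almost completely with LPS in both genotypes. It lay at 17.1, 18.4, 16.6 and 15.3 CPM in WT control and 14.3, 14.7, 14.7 and 15.5 CPM in KO control. With LPS the libraries held 10, 3, 4, 4 and 1 counts in WT and 2, 1, 1, 2 and 3 counts in KO. The highest LPS library, WT LPS replicate 1, came to 0.448 CPM, and no control library lay below 14.3 CPM. The log2 change with LPS was -6.33 ± 0.18 in WT and -7.29 ± 0.21 in KO. These ± values are too small, since the LPS libraries held 22 counts in total in WT and 9 in KO. With LPS the genotypes overlapped (-1.15 ± 0.48, adjusted p = 0.14), and leaving out single libraries moved this value between -1.40 and -0.63. At such counts a genotype difference with LPS was not detectable. Without LPS the genotypes overlapped in CPM, with a log2 difference of -0.19 that was not called. Over 27 alternatives, edgeR, DESeq2 and limma-voom fits among them, its adjusted p was 0.064 or more. In TPM every KO control library (15.8 to 16.1) lay below every WT control library (18.7 to 21.9).

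Ptger4 (gene ID 19219), the second receptor that raises cAMP, rose in both genotypes to a similar level. Control libraries held 17.8, 16.7, 15.4 and 16.0 CPM in WT and 17.2, 14.9, 16.2 and 16.4 CPM in KO. LPS libraries held 327, 403, 265, 298 and 347 CPM in WT and 407, 335, 278, 339 and 344 CPM in KO. Every LPS library lay above every control library, and the genotypes overlapped in both conditions. The log2 change was 4.32 ± 0.12 in WT and 4.40 ± 0.12 in KO (19.9-fold and 21.1-fold). The KO to WT difference with LPS was 0.05 ± 0.10 with an interval of -0.15 to 0.26 (adjusted p = 0.77), so a fall of the size seen in Ptger2 lies outside it.

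The promoters of these receptors and of Ptgs2 are shown because the 4 genes moved in different directions under LPS. Each sequence is the 250 bases before the RefSeq start in GRCm38.p6, read 5′ to 3′ on the gene's strand: Ptger2 at chr14:44987861-44988110 (+), Ptger3 at chr3:157566626-157566875 (+), Ptger4 at chr15:5244188-5244437 (-) and Ptgs2 at chr1:150099781-150100030 (+). Capitals mark matches on either strand to the kappa-B motif GGGNNNNNCC, where N is any base.
Ptger2: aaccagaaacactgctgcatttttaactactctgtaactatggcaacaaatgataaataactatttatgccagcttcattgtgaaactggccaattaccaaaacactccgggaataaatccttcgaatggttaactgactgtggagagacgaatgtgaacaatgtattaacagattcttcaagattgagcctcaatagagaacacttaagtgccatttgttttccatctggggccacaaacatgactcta
Ptger3: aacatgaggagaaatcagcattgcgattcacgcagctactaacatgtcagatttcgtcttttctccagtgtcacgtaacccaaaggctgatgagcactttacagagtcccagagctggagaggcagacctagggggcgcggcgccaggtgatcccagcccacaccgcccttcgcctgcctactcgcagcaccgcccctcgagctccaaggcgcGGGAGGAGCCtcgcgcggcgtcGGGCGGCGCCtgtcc
Ptger4: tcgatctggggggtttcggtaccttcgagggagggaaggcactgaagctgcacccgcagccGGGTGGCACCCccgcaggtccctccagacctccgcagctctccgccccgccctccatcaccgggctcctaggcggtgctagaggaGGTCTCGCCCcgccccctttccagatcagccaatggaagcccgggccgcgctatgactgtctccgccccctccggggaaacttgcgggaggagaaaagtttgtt
Ptgs2: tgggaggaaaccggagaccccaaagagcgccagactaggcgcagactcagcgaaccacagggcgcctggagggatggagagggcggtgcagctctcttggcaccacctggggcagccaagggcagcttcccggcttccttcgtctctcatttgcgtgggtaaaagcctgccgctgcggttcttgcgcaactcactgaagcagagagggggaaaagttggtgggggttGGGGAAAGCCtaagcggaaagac
The kappa-B motif is the site that NF-kappa-B, a transcription factor activated by LPS, can bind. Ptger4 had 3 matches, starting at -189, -188 and -104 and the first pair overlapping, and Ptgs2 had 1 at -23. Ptger3, which fell, had 2 matches at -37 and -15, and Ptger2 had 0. Of 32851 promoter windows of this length, 45.8% held the motif, so its presence is common and is a match of letters only. The same search gave 1 match in Ptges, 2 in Alox5 and 0 in Ptgs1. Searches on both strands for TATAAA (in 12.4% of windows), the cAMP element core TGACG (17.8%) and the STAT motif TTCNNNGAA (7.02%) gave no match in the 7 genes that the table holds. This concerns the 250 bases before the RefSeq start only. Sites further upstream or after that start were not searched, so a lack of such elements in these promoters cannot be read from it. Alox5ap was not matched.

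The enzymes that make prostaglandin E2 moved in opposite directions. Ptgs2 (gene ID 19225), the inducible cyclooxygenase, was close to 0 in controls, with 2, 5, 4 and 6 counts in WT and 5, 3, 3 and 3 counts in KO. With LPS it reached 10.3, 27.9, 11.0, 12.7 and 18.3 CPM in WT and 15.5, 16.5, 12.9, 13.3 and 14.8 CPM in KO. WT LPS replicate 2 was the highest of all, and the KO libraries lay inside the WT range. The fitted log2 change was 7.04 ± 0.38 in WT and 7.16 ± 0.40 in KO, and both rest on few control counts. The KO to WT difference with LPS was -0.13 ± 0.20, with an interval of -0.54 to 0.28.

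Ptgs1 (gene ID 19224), the constitutively expressed cyclooxygenase, fell. It lay at 5.26, 3.05, 4.36 and 3.58 CPM in WT control and 4.28, 2.36, 2.72 and 3.25 CPM in KO control, and at 0.851, 1.02, 0.500, 0.630 and 0.760 CPM in WT LPS and 0.973, 1.38, 0.840, 0.952 and 0.401 CPM in KO LPS. No LPS library reached the lowest control library, and the genotypes overlapped in both conditions. The log2 change was -2.43 ± 0.25 in WT and -1.79 ± 0.25 in KO, a difference of 0.65 ± 0.38 (adjusted p = 0.37). As a ratio of TPM, Ptgs2 to Ptgs1 went from 0.0208 ± 0.0107 to 14.5 ± 4.54 in WT and from 0.0203 ± 0.00255 to 12.0 ± 6.06 in KO. Without LPS, KO lay below WT in Ptgs1 in 4 of 4 library sets, with a log2 difference of -0.37 ± 0.21 that was not called (adjusted p = 0.49).

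Ptges (gene ID 64292), the inducible synthase of prostaglandin E2, was at the limit of detection without LPS. Control libraries held 3, 2, 0 and 4 counts in WT and 0, 3, 1 and 2 counts in KO, and a count of 0 allows up to 0.0833 CPM in WT control replicate 3 and 0.0845 CPM in KO control replicate 1 (3 counts, counting error only). With LPS it lay at 1.43, 3.42, 1.73, 1.89 and 1.85 CPM in WT and 1.95, 3.41, 1.14, 1.60 and 2.15 CPM in KO. Replicate 2 was the highest library in both genotypes, and the ranges overlapped almost fully. The log2 change with LPS was 4.95 ± 0.49 in WT and 5.47 ± 0.52 in KO. With LPS the genotype difference had an interval of -0.58 to 0.58.

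On the leukotriene side, the partner protein gene was abundant and the enzyme gene was not. Alox5 (gene ID 11689), which codes for 5-lipoxygenase, had 10, 8, 13 and 11 counts in WT control and 10, 8, 4 and 6 in KO control. With LPS it had 2, 0, 0, 2 and 2 counts in WT and 2, 2, 1, 0 and 3 in KO, and 0 counts allow up to 0.136 to 0.153 CPM. Fitted without the filter, its log2 change with LPS was -2.32 ± 0.55 in WT and -1.28 ± 0.55 in KO.

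Alox5ap (gene ID 11690), which codes for the protein that presents arachidonate to 5-lipoxygenase, was the most abundant of the 8 genes per length in controls, at 1163 ± 52.8 TPM in WT and 1231 ± 33.6 TPM in KO (SD, n = 4). Its level was 409.6, 439, 378 and 404 CPM in WT control and 444, 482, 467 and 492 CPM in KO control. With LPS it was 109.7, 81.7, 112, 105 and 91.3 CPM in WT and 64.0, 92.2, 85.9, 75.2 and 72.4 CPM in KO. It was lower in all LPS libraries than in any control library, with a log2 change of -2.02 ± 0.10 in WT and -2.60 ± 0.10 in KO. Every KO control library lay above every WT control library, while with LPS the KO mean was lower (77.9 ± 11.2 against 100.1 ± 13.1 CPM) and the groups overlapped.

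With LPS, Alox5ap was lower in KO by 0.36 ± 0.09 on the log2 scale (edgeR adjusted p = 0.016), and KO lay below WT in 4 of 5 library sets. The call ended when the LPS groups were fitted alone (adjusted p = 0.078), without WT LPS replicate 3 (0.052) and without KO LPS replicate 1 (0.053). The difference between the LPS responses, -0.57 ± 0.14 (adjusted p = 0.025), ended without WT control replicate 3 (0.070), KO control replicate 4 (0.052) or KO LPS replicate 5 (0.051). Without LPS the difference was 0.21 ± 0.10 (adjusted p = 0.36; 0.041 when the control groups were fitted alone). In this control comparison 1.89% of genes were called higher and 0.525% lower (226 and 63 genes, or 490 and 405 with the control groups fitted alone). Of the 7 tested genes, 0 were called by edgeR, DESeq2 or limma-voom, with 1 of them under an unadjusted p of 0.05.

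Markers of other cells were also followed beside Alox5ap. The summed monocyte and macrophage markers (14 of 14 detected) lay at 1919 to 2026 CPM for WT and 2026 to 2299 CPM for KO without LPS, and with LPS at 1488 to 1939 CPM for WT and 1321 to 2019 CPM for KO. Lyz2 and Ccr2 were the largest parts of this sum in WT control (1270 and 446 CPM), and lay at 1148 and 82.6 CPM in WT LPS. Of the 14 markers, 9 were called higher with LPS and 2 lower in WT, and 9 and 4 in KO. Between genotypes 0 were called without LPS, and with LPS 0 were called higher and 1 lower. Replicate 2 was the highest library of each LPS group in the summed markers. Its Alox5ap level was the highest of KO LPS (92.2 CPM) and the lowest of WT LPS (81.7 CPM). The mast cell and basophil list (6 of 9 in the table) consisted almost wholly of Kit, a growth factor receptor also found on progenitors, since the other 5 genes lay under 0.1 CPM in every group mean. Its sum was 204 to 245 CPM for WT and 257 to 294 CPM for KO without LPS, and 186 to 196 CPM for WT and 157 to 177 CPM for KO with LPS. Kit differed by 0.28 ± 0.06 between KO and WT without LPS (adjusted p = 0.013) and by -0.20 ± 0.05 with LPS (0.023), the same signs as Alox5ap. The part of these cells in the result was not tested.

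**Figure D3:**
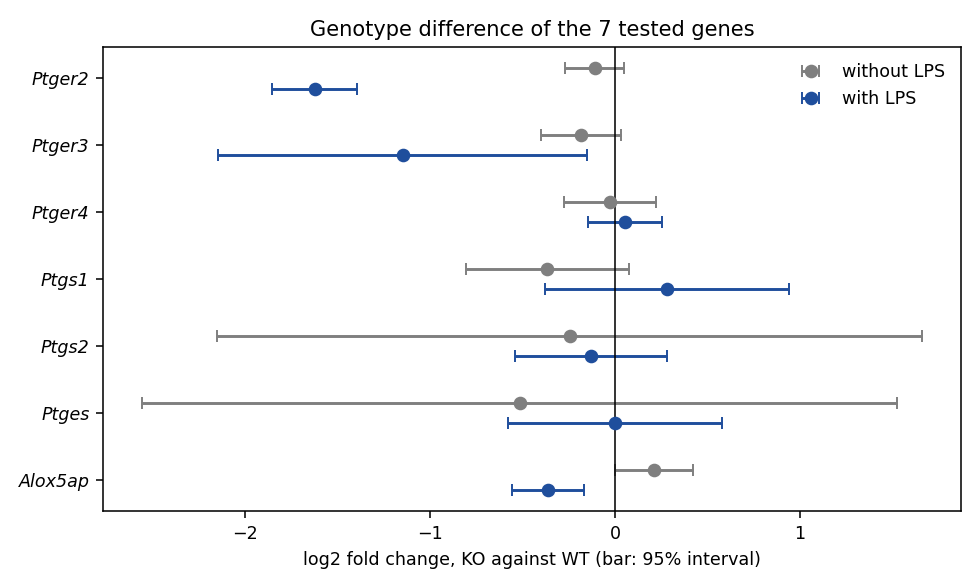
Log2 fold change of KO against WT for the 7 tested genes, without LPS and with LPS (points: edgeR estimates; bars: 95% intervals). Ptger2 with LPS lies at -1.62 with a narrow interval, and the intervals of Ptgs2 and Ptges without LPS are wide because control counts are near 0.

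**Figure D4:**
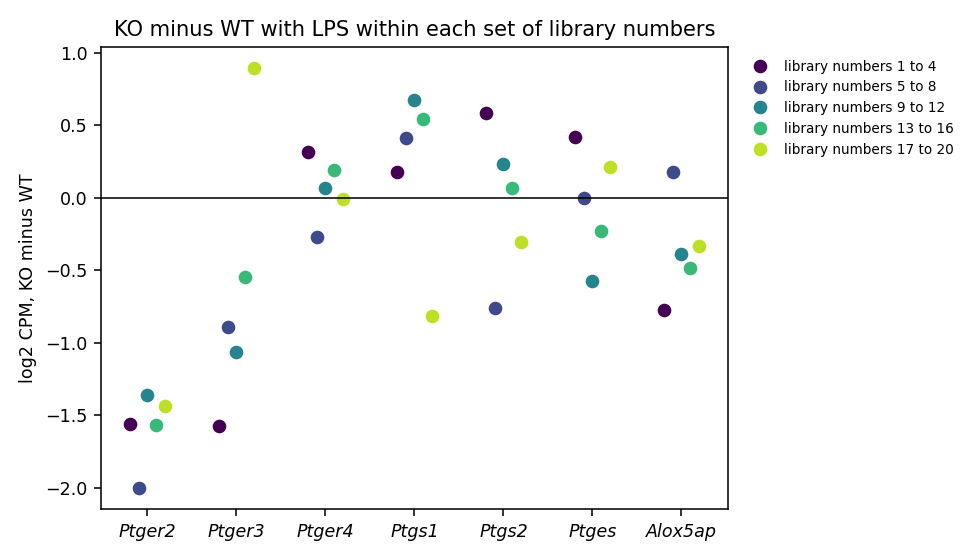
Difference of log2 CPM between KO and WT with LPS within each of the 5 sets of library numbers, by gene. Ptger2 with LPS is negative in 5 of 5 sets, between -2.00 and -1.36, and Alox5ap in 4 of 5.

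Ordered by TPM, the 8 genes changed places with LPS. In WT control the order was Alox5ap, Ptger3, Ptger2, Ptger4, Ptgs1, Alox5, Ptgs2 and Ptges, with overlap between Ptger3 and Ptger2 and between Ptgs2 and Ptges. KO control had the same order except that Ptger2 and Ptger3, which overlapped, were exchanged. In WT LPS, Alox5ap (173 ± 30.0 TPM) and Ptger4 (135 ± 15.1 TPM) overlapped at the top, followed by Ptgs2 at 4.69 TPM and Ptger2 at 2.15 TPM. In KO LPS, Ptger4 (136 ± 15.4 TPM) and Alox5ap (129.7 ± 20.4 TPM) also overlapped, and Ptger2, at 0.690 ± 0.0962 TPM, overlapped with Ptges and Ptgs1. Ptges and Ptgs1 did not overlap with Ptger2 in WT LPS.

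The rest of the pathway was followed through 6 lists, which together held 95 genes, 88 of them in the table and 71 tested. Between genotypes without LPS 2 of 71 were called higher, both leukotriene genes, and 0 lower. Over all tested genes 1.89% were called higher and 0.525% lower. Ltb4r1, the high-affinity receptor for leukotriene B4, had 7.62 CPM in WT control against 13.5 CPM in KO control (log2 0.83 ± 0.14, edgeR adjusted p = 0.0029). Dpep2, a dipeptidase that processes cysteinyl leukotrienes, lay at 227 and 301 CPM (0.41 ± 0.06, adjusted p = 0.00086). For both genes every KO control library lay above every WT control library. The medians of log2 fold change were 0.02 over the 71 genes and 0.02 over all tested genes.

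Between genotypes with LPS, 2 of 71 genes were called higher and 5 lower, beside 2 lower among the 7 tested genes described above. Over all tested genes 5.30% were called higher and 5.50% lower. Lower in KO were Ggt5, a transferase that processes leukotriene C4 (1.36 and 0.379 CPM, log2 -1.81 ± 0.31, adjusted p = 0.00079), and Cysltr1, the first receptor for cysteinyl leukotrienes (20.9 and 14.5 CPM, -0.53 ± 0.15, 0.025). Also lower were Lta4h, which makes leukotriene B4 (22.7 and 19.4 CPM, -0.23 ± 0.07, 0.035), Pla2g4a, the cytosolic phospholipase that frees arachidonate (2.05 and 1.17 CPM, -0.81 ± 0.15, 0.0020), and Cbr3, a carbonyl reductase (1.79 and 1.07 CPM, -0.74 ± 0.14, 0.0020). Pde4a, a phosphodiesterase that degrades cAMP, was higher (9.91 and 13.8 CPM, 0.48 ± 0.10, 0.0055), as was Abhd6, a monoacylglycerol hydrolase (6.79 and 8.73 CPM, 0.36 ± 0.11, 0.039). In Ggt5, Pla2g4a and Cbr3 no KO LPS library reached the lowest WT LPS library. In Abhd6 every KO LPS library lay above every WT LPS library. The calls of Ggt5, Pla2g4a, Cbr3 and Pde4a held under all 27 alternatives, and those of Cysltr1, Lta4h and Abhd6 ended under 6, 8 and 10 of them, with adjusted p up to 0.11, 0.14 and 0.11. With total-count scaling 1 was called higher and 8 lower. Without WT LPS replicate 2, 21 of the 71 genes were called, 9 higher and 12 lower, beside 1650 higher and 1694 lower of 11968 tested genes.

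In the interaction test 1.03% of all tested genes were called higher and 2.79% lower (124 and 334 genes, or 174 and 232 with RLE scaling). Of the 71 genes, 0 were called higher and 5 lower, and these 5 fell further with LPS in KO than in WT. They were Ggt5 (log2 difference -1.57 ± 0.37, adjusted p = 0.024), Ptgdr2, the second prostaglandin D2 receptor (-1.49 ± 0.39, 0.037), Cbr3 (-0.86 ± 0.18, 0.0094), Mgst3, a microsomal glutathione transferase (-0.68 ± 0.18, 0.042), and Dpep2 (-0.41 ± 0.08, 0.0094). Dpep2 lay at 57.1 CPM in both LPS groups, and the genotypes differed in the controls. Mgst3 went from 3.66 to 2.62 CPM in WT and from 4.98 to 2.23 CPM in KO. The calls of Cbr3 and Dpep2 held under all 26 alternatives, and those of Ggt5, Ptgdr2 and Mgst3 ended under 2, 12 and 16, with adjusted p up to 0.088.

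With LPS, 39 of the 71 genes were called lower and 19 higher in WT, and 40 lower and 18 higher in KO. With total-count scaling these were 52 and 11 in WT and 54 and 12 in KO. The median log2 change was -0.48 in WT and -0.55 in KO, beside -0.06 and -0.10 over all tested genes. Of all tested genes, 44.7% were called lower and 40.7% higher in WT, and 46.2% and 40.0% in KO. In the leukotriene list 7 of 12 tested genes were called lower and 1 higher in both genotypes. Ltb4r1 fell by 5.63 ± 0.26 on the log2 scale in WT, and Ltc4s, the leukotriene C4 synthase, by 2.49 ± 0.32. Ltb4r1 was left at 0.148 CPM in WT LPS, so its ± can be too small. The gene called higher was Fpr2, a formyl peptide and lipoxin receptor, from 0.00689 to 1.25 CPM in WT and from 0.0279 to 0.930 CPM in KO, where the control levels rest on almost no counts.

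Genes for prostaglandin removal and for other prostanoids were called in both directions with LPS. Of the 6 tested transport and breakdown genes, 3 were called lower and 1, the carrier Slco3a1, higher in both genotypes, beside 44.7% (WT) and 46.2% (KO) of all tested genes called lower. Hpgd, the dehydrogenase that inactivates prostaglandin E2, went from 16.9 to 1.35 CPM in WT and from 14.9 to 1.31 CPM in KO, a log2 change of -3.64 ± 0.16 and -3.51 ± 0.16. Abcc4, an exporter of prostaglandins, fell too (log2 -1.81 ± 0.08 in WT and -2.00 ± 0.08 in KO), as did Ptgr2, a prostaglandin reductase (-1.46 ± 0.08 and -1.79 ± 0.09). Slco3a1 lay at 278 CPM in WT control and 427 CPM in WT LPS, a log2 change of 0.62 that turned to -0.13 when libraries were scaled by total count. Of the 8 tested synthases, 5 were called lower in both genotypes, Tbxas1, the thromboxane synthase (208 to 55.7 CPM in WT), Cbr1 and Cbr3, carbonyl reductases (2.84 to 0.776 and 5.20 to 1.79 CPM), Ptges2 and Prxl2b. The 2 called higher were Hpgds, a prostaglandin D2 synthase (109 to 226 CPM in WT, log2 1.06 ± 0.07), and Ptges3, a co-chaperone with prostaglandin E2 synthase activity (0.75 ± 0.05, or 0.01 with total-count scaling). Of the 4 tested genes listed as other prostanoid receptors, Pparg, which codes for a nuclear receptor, and Ptgdr2 were called lower in both genotypes. In WT the Ptgdr2 libraries of the control and LPS groups overlapped, and its call (log2 -0.66 ± 0.25, adjusted p = 0.022) ended without WT control replicate 4 or WT LPS replicate 1, 3 or 4 (adjusted p 0.050 to 0.076). Of the same receptors, Ptgir, the prostacyclin receptor, was called higher in WT (1.16, adjusted p = 0.0052) and not in KO (0.57, adjusted p = 0.12), a difference that was not called (adjusted p = 0.55). Slco3a1, Ptges2, Prxl2b, Hpgds, Ptges3 and Ptgir were named after their values were seen.

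**Figure D5:**
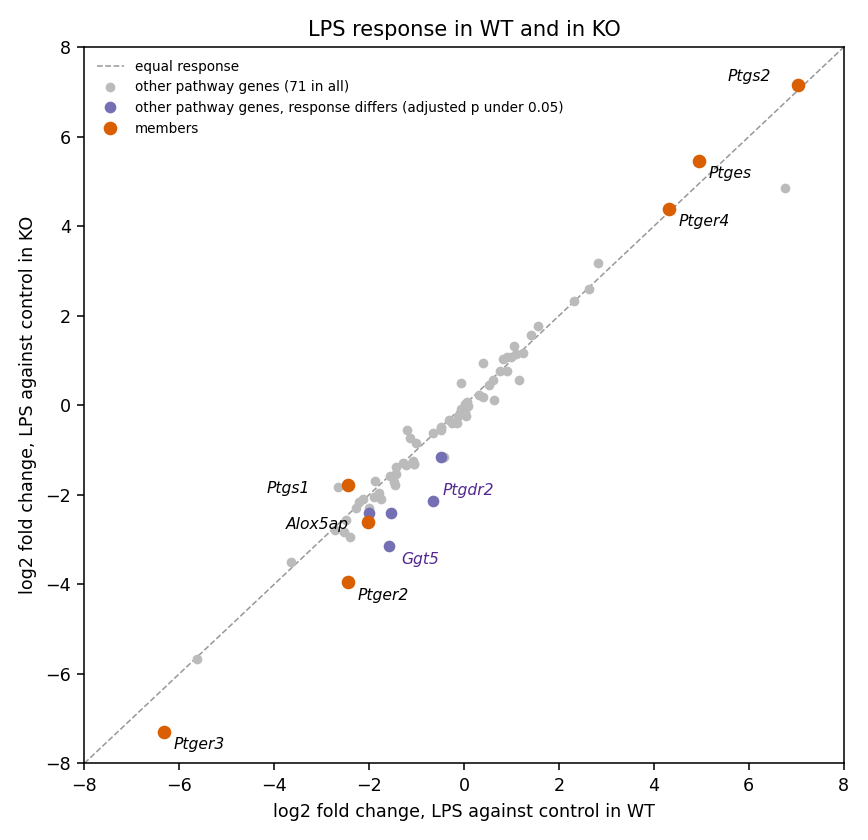
Log2 fold change of LPS against control in WT (horizontal) and in KO (vertical) for the 7 tested genes and 71 other pathway genes; the dashed line marks equal responses. Ptger2 lies below the line at -2.44 and -3.95, and the 5 purple points are the other pathway genes whose response was called different.

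Arachidonate supply and cAMP signalling split between directions. Among 18 tested supply genes, 7 were called higher and 9 lower in WT, and 7 and 8 in KO. Plaat3, a phospholipase and acyltransferase, rose by 2.63 ± 0.14 in WT and 2.59 ± 0.14 in KO, and Pla2g4f, a cytosolic phospholipase, by 2.82 ± 0.27 and 3.18 ± 0.26. Daglb, a diacylglycerol lipase, fell, with log2 changes of -2.53 ± 0.12 and -2.83 ± 0.12. Among 23 tested cAMP genes, 7 were called higher and 13 lower in WT, and 7 and 15 in KO. The shares over all tested genes were 40.7% higher and 44.7% lower in WT, and 40.0% and 46.2% in KO. Adcy6, an adenylyl cyclase, rose from 29.5 to 147 CPM in WT, while Prkar2b, a regulatory subunit of protein kinase A, went from 14.8 to 2.23 CPM and Arrb1, an arrestin that desensitises receptors, from 493 to 102 CPM.

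For each tested gene, the genes with the most similar profile over the 18 libraries were sought by the root-mean-square difference of log2 CPM (prior count 2), each gene centred on its own mean. Ptger2 was nearest to Olfm1 (0.312), Casp6 (0.323) and Bbs12 (0.360). Olfm1 shared the further step in KO, at 37.0 CPM in WT LPS and 11.5 CPM in KO LPS. Casp6 (6.51 and 2.81 CPM) and Bbs12 (1.92 and 0.960 CPM) shared it too. The distance was taken over all 18 libraries, KO LPS among them, so a shared step is part of the choice. Ptger4 had much closer neighbours, Optn (0.108), Lilrb4a (0.118) and Irgm2 (0.137), as had Alox5ap with Itgb7 (0.106), Rtl8c (0.114) and Otulinl (0.121). Ptgs2 was nearest to Slfn5 (0.264), Ifih1 (0.272) and Sdc4 (0.296), and Ptges to Cd14 (0.331), Dusp14 (0.378) and Plat (0.387). Ptger3 had the most distant neighbours, Abhd15 (0.450), Tet1 (0.555) and Susd3 (0.575), and Ptgs1 was nearest to Slc36a4 (0.341), Zfp704 (0.364) and Skida1 (0.377). Counting error also enters these distances, and its part was not tested.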

How the data were processed

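RNA of 18 mouse BMDC samples was sequenced as 150-base read pairs on the DNBSEQ platform, per the labels' protocols. The tools Bowtie2 and HISAT and the build GRCm39 are listed, per the submitters' processing notes. Not given in the sources used here: tool versions, the annotation and the counting step. The authors deposited FPKM, TPM and an estimated count of each gene in each library, per the file headers. The estimated counts are not normalized, and 6.37% of them are not whole (tolerance 0.001). The deposited TPM values are scaled by length to a common sum per library, and the deposited FPKM values by length and library total. Library totals were 25590104 to 27375189 estimated counts, and the level that 3 counts come to is given beside each count of 0.

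Groups came from the labels. Estimated counts were rounded and fitted with edgeR 4.0.16 (quasi-likelihood F test, TMM, R 4.3.3) to all 18 libraries with a mean per group. Genes passed filterByExpr (minimum count 10, minimum total 15), and 11989 of 16614 did. Benjamini-Hochberg adjustment ran over all tested genes within each of 5 contrasts, and a gene was called at an adjusted p under 0.05. The SE of a fold change was its size over the square root of the F statistic, and intervals were built from it. Where a gene falls to a few counts, this SE can be too small. The fit was tested on simulated data. CPM was scaled with TMM factors. TPM served to compare genes within a library, with FPKM as the alternative. Other alternatives were DESeq2 1.42.0, limma-voom (limma 3.58.1), RLE and total-count scaling, no filter, only the groups compared, replicate blocks, and left-out libraries. Library sets are runs of 4 library numbers counted from 1, a division made here and not in the labels. Nothing says what the numbers stand for. The set with libraries 5 and 7 holds only these, both with LPS. Promoter windows came from RefSeq (GRCm38.p6), a build other than that of the files, and no other coordinates are given.

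The 8 genes and the pathway and marker lists were chosen with earlier results of these data known. Named beside the 8 genes are, per list and contrast, up to 3 called genes with the largest absolute log2 fold change and a group mean of 1 CPM or more, and for each tested gene the 3 with the most similar profile, gene models left out.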

Additional observations from a re-analysis of the deposited data

Results flagged for a closer look

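Among the tested genes of the pathway, 7 had a response to LPS that differed between the genotypes by the interaction test of edgeR. Over all tested genes this test called 458 of 11989 (3.82%). The difference between the LPS responses of KO and WT was -1.51 on the log2 scale for Ptger2, -0.57 for Alox5ap, -1.57 for Ggt5, -1.49 for Ptgdr2, -0.86 for Cbr3, -0.68 for Mgst3 and -0.41 for Dpep2. Of these, Ptger2, Cbr3 and Dpep2 kept the call under all 26 alternatives.

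A library stood far from the others in 2 of 32 groups of values checked, where chance gives about 1 in 20. Ptgs2 in KO control reached 0.141 CPM in 1 library and 0.0826 to 0.0843 CPM in the others, all on a few counts. Ptges in WT LPS reached 3.42 CPM in replicate 2 and 1.43 to 1.89 CPM in the other libraries. Replicate 2 also held the highest Ptgs2 level of WT LPS, 27.9 CPM.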

How the results depend on the processing

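Of 935 values of the 7 tested genes under alternatives (35 fold changes), 928 kept their direction and side of the threshold or moved only while not called, 6 lost the call, all of Alox5ap, 1 gained it, Alox5ap without LPS, and 0 reversed. Of 1291 values of named pathway genes, 1233 kept the call and 58 lost it. Total-count scaling moved the median log2 change of all genes with LPS from -0.06 to -0.80 in WT and from -0.10 to -0.88 in KO. FPKM in place of TPM moved no share or ratio of the receptors and cyclooxygenases by more than 1 SD.

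Between genotypes without LPS, 1 of the 7 genes was called with only the groups compared, against 0, and the other pathway genes called numbered 4 with only the groups compared and 4 without libraries 5 and 7, against 2. With LPS, the genes called numbered 1 with only the groups compared and 1 to 2 with each library left out, against 2. The pathway genes called with LPS numbered 11 with DESeq2, 4 with only the groups compared, 24 without libraries 5 and 7 and 4 to 21 with each library left out, against 7. For the interaction, pathway genes called numbered 8 with DESeq2, 12 without libraries 5 and 7 and 2 to 10 with each library left out, against 5, and the 7 genes gave 1 to 2 against 2. The cause was not tested.

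With a replicate block by library set, pathway genes called numbered 12 with LPS and 8 for the interaction, and with a replicate block by title number 3 for the interaction. Deviations from group means correlated at -0.05 to 0.35 over 25 pairs of the same set (12 over 0.1) and -0.22 to 0.35 over 25 pairs of the same title number (6 over 0.1), against 8 of 96 pairs of different sets over 0.1. The median was 0.09 within library sets and -0.02 between them, and all 6 pairs of libraries 9 to 12 lay over 0.1 (0.14 to 0.35). Pairs thus passed 0.1 more often within sets than between them, though 13 of the 25 same-set pairs did not. As nothing says what the numbers stand for, the block was kept as an alternative. The main fit does not model any variation shared within sets.

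Over all tested genes, calls without LPS numbered 289, and 494 with DESeq2, 895 with only the groups compared, 614 with the block by library set and 822 without libraries 5 and 7. Of them 226 were higher and 63 lower, against 490 and 405 with only the groups compared and 432 and 390 without libraries 5 and 7. Leaving out 1 library gave 114 (WT control replicate 3) to 751 (WT LPS replicate 2), and omission of KO control replicate 2, KO control replicate 3 or WT control replicate 1 gave 158, 171 and 175. With LPS they numbered 1294, and 619 with only the groups compared, 1915 with the block by library set and 3238 without libraries 5 and 7. Leaving out 1 library here gave 805 (KO LPS replicate 1) to 3344 (WT LPS replicate 2). The interaction gave 458 calls, and 792 with DESeq2, 882 with the block by library set and 1591 without libraries 5 and 7. Leaving out 1 library gave 208 (WT control replicate 3) to 1501 (WT LPS replicate 2), and 279 to 305 without WT control replicate 4, KO control replicate 3 or 4, or KO LPS replicate 1, 4 or 5. Ptgs2, Ptges, Alox5 and, with LPS, Ptger3 rest on too few counts to show a moderate genotype difference in the conditions where they are low.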
